A study of Mus musculus with 20 samples.

Results

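Chromatin regions that switched between day 1 or 3 and day 5 or 7 of reprogramming with native Nanog and Oct4 were collected from ATAC-seq peak lists. A region was called gained if it had no peak in the day 1 and day 3 libraries and a peak in both the day 5 and day 7 libraries, and lost if it showed the reverse. Peaks of all 20 libraries of the series merged into 335858 regions, of which 111129 were open in at least 1 of these 4 libraries. Of those 111129 regions, 10752 were gained (9.68%) and 1896 were lost (1.71%), so the text concerns 12648 regions in all. A further 29244 regions were open in all 4 libraries and serve for comparison.

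The cells were mouse embryonic fibroblasts (MEFs) with an Oct4-GFP (OG2) reporter. They came from mid-gestation embryos of OG2 males and 129 females. Retroviruses carried Oct4 with native Nanog, or Oct4 with NanogN70, the form that the study names NanogBiD and that bears the BRG1-binding part of SS18. Oct4 was thus common to both paths. Day 0 followed 2 rounds of infection, after which cells were kept in iCD3 medium and later moved to N2B27 with 2iL. The methods place this move at day 7 or at another chosen time, and the day used for the ATAC-seq libraries was not found. Untransduced MEFs (1 library) and embryonic stem cells (ESCs, 3 libraries, grouped by title because the source field of these samples also reads MEF) are the start and end points. Each day of each path is 1 library. No step that selects transduced or reprogrammed cells before ATAC-seq is described in the labels or methods, so a region open in few cells and a region weakly open in many cannot be told apart.

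ATAC-seq reads open chromatin through the insertion of adapters by Tn5 transposase, and peaks mark nucleosome-depleted promoters and enhancers. In fibroblasts, distal enhancers are held open by AP-1 (dimers of FOS and JUN proteins) with TEAD and RUNX factors, and their closing is a hallmark of the loss of somatic identity. In ESCs, enhancers of the naive state are bound by OCT4, SOX2, NANOG, KLF and ESRRB. OCT4 reads the octamer alone, a composite site with SOX2, or palindromes on which a pair of POU domains sits.

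The 4 libraries differed in how readily they yielded peaks. They had 65872 peaks on day 1, 60077 on day 3, 91745 on day 5 and 84526 on day 7. At 31355 regions with a peak in MEFs and in each of the 3 ESC libraries, peaks were found at 68.5%, 71.4%, 78.6% and 83.7% on these days. At 14217 regions open in all 20 libraries the median summit pileup, the number of tags that cover the summit, was 16, 23, 28 and 38. Both measures are higher in the later libraries, so they move in the direction of the excess of gained over lost regions, and their part in that excess was not tested. With the same number of top-scoring peaks, 60077, kept in each library, there were 4509 gained and 3312 lost regions. Read totals were not found in the labels, files or methods, which leaves the depth unknown, and an open site can go without a peak in a shallow library. The NanogN70 day 3 library stood apart from all others of the time course, with promoter peaks at 9 of 12 leukocyte markers against 2 or 3 in the 4 libraries used here, and switch shares of that path are given with and without it.

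Exons carried by the vectors serve as a check of the labels. The first coding exon of Pou5f1, which encodes OCT4 and is carried by the vector, had summit pileups of 435, 119, 24 and 36 on days 1, 3, 5 and 7, and the second coding exon of Nanog had 299, 84, 21 and 24. Of 12 fibroblast markers, 11, 8, 11 and 11 had a promoter peak on days 1, 3, 5 and 7. Of 12 epithelial markers, 1, 1, 4 and 7 had one. The ESC markers Zfp42, Dppa5a and Prdm14 had no promoter peak on any of the 4 days, while 6, 9, 9 and 9 of the 12 ESC markers had one, which for Nanog and Pou5f1 includes signal of the vectors.

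The sequences around the summits of switching regions are shown first, because lost and gained regions differed in the AP-1 site. By rule, 10 gained and 9 lost regions are named, and 18 of these 19 have their summit in an intron or between genes. In these 18, an AP-1 site (TGANTCA) lay within 50 bp of the summit in 4 of 8 lost and in 0 of 10 gained regions. Windows of 101 bp (GRCm38, the sequence of mm10, plus strand) are printed for the 4 lost regions with an AP-1 site and for the 3 gained regions with an octamer (ATGCAAAT) or an arm of a palindrome for a POU dimer (ATGNATA). Capitals mark these sites and, where present, sites of TEAD (GGAATG) and CTCF (CCANNAGGG), on either strand. Over all 18 windows, the octamer was in 1 of 10 gained and 0 of 8 lost, and the arm in 2 of 10 gained and 1 of 8 lost.
lost, near Hsp90b1, chr10:86612451-86612551: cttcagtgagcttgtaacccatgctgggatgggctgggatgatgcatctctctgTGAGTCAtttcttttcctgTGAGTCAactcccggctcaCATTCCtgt
lost, near Nr2f2, chr7:70267160-70267260: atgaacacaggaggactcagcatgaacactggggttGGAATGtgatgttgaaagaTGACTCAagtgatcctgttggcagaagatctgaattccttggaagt
lost, R3hdm2 intron, chr10:127430704-127430804: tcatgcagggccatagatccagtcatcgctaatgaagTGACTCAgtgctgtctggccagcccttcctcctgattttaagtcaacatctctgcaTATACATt
lost, Trpm6 intron, chr19:18890365-18890465: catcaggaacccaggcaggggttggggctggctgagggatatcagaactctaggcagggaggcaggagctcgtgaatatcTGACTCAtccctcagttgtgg
gained, far from Eef2kmt, chr16:5656468-5656568: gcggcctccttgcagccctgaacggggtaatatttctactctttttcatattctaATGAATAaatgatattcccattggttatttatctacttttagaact
gained, Rbfox1 intron, chr16:7158943-7159043: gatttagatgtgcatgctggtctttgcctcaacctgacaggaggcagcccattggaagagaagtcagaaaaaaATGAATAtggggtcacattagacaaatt
gained, near H2afz, chr3:137780137-137780237: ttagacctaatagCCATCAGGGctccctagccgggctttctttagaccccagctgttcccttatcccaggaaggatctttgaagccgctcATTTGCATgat

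Regions were then classed by the MEF and ESC libraries, which the rule did not use. MEF type means open in MEFs with no peak in any ESC library, ESC type means closed in MEFs and open in at least 2 of 3 ESC libraries, shared means open in MEFs and in at least 2 ESC libraries, and neither means closed in all 4. Lost regions were mostly MEF type, 1062 of 1896 (56.0%, 95% exact binomial interval 53.7 to 58.3), against 16.1% of regions open in all 4 libraries and 19.4% of those open in at least 1. The MEF type was not the largest lost state in every alternative: it was at 35.59% against 47.71% neither without day 1, at 43.91% against 46.52% without day 3, and at 44.42% against 45.06% with at least 0.5 of a region covered. Gained regions were mostly open in neither cell type, 5692 of 10752 (52.9%, interval 52.0 to 53.9), against 13.0% and 42.6% in the same comparison sets. With a minimum score of 100, neither made up 37.45% of gained regions and shared 37.08%, the latter beside 18.43% in the main calls. ESC type regions made up 1264 of the gained regions (11.8%, interval 11.2 to 12.4) and 33 of the lost regions (1.74%, interval 1.201 to 2.436), and 6.22% of regions open in at least 1 library. The ESC type share of lost regions was 4.625% without day 1 and 0.4% with a minimum score of 100. The intervals cover counting error only. By single libraries the order against the background differed. Of gained regions, 30.5%, 31.9% and 28.1% were open in the 3 ESC libraries (30.2% ± 1.90, SD, n = 3), and of lost regions 9.23%, 9.86% and 8.02% (9.04% ± 0.938, SD, n = 3). Regions open in at least 1 library stood at 33.9% ± 1.35 (SD, n = 3) in ESCs, so gained regions were below them there, although above them in the share of the ESC type. The MEF library was open at 32.4% of gained, 65.2% of lost and 49.2% of all these regions.

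**Figure D1:**
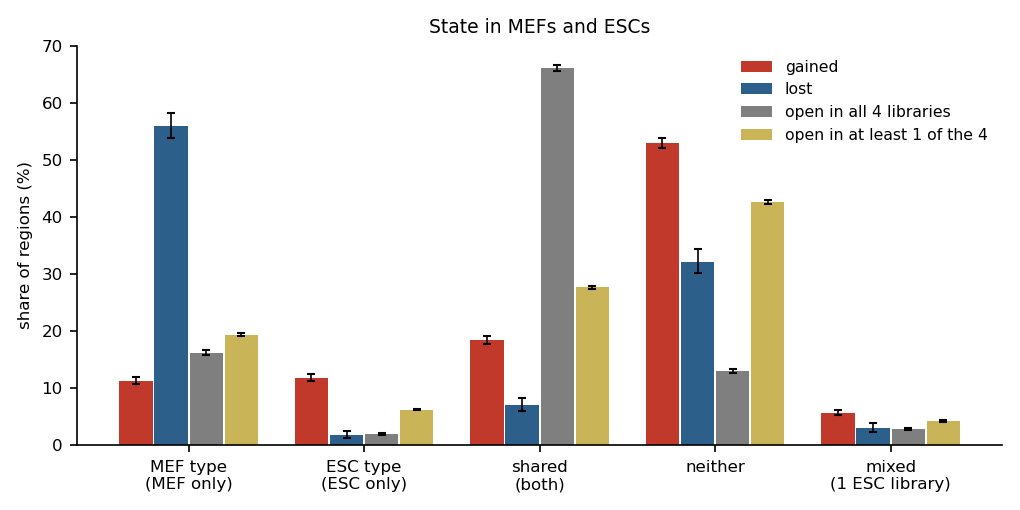
Share of regions (%) in each MEF and ESC state for gained, lost, constantly open regions and all regions open in at least 1 of the 4 libraries, with 95% exact binomial error bars. Lost regions stand highest in the MEF type (56.0%) and gained regions in neither cell type (52.9%).

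Seen from the states, 7406 MEF type regions were open on both day 1 and day 3, and 14.3% of them were lost by days 5 and 7. The same share was 4.87% of 678 ESC type regions, 0.657% of 20239 shared regions and 11.2% of 5434 regions of neither cell type. Conversely, 2651 ESC type regions were open on both day 5 and day 7, and 47.7% of them had been closed on both days 1 and 3. That share was 41.8% for regions of neither type, 15.6% for MEF type and 7.90% for shared regions. Even so, the 1264 gained ESC type regions were 2.28% of the 55446 ESC type regions of the series, and the 1062 lost MEF type regions were 1.42% of 74608.

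Lost MEF type regions were strong in MEFs. Their median MEF pileup was 18, beside 19 for MEF type regions open in all 4 libraries and 9 for all MEF type regions of the series. Gained ESC type regions had median pileups of 12, 13 and 11 in the 3 ESC libraries, beside 10, 11 and 9 for all ESC type regions. In the libraries that defined them, switching regions were weak. The median pileup was 7 on both day 5 and day 7 for gained regions, 6 and 7 on days 1 and 3 for lost regions, and 10, 14, 16 and 19 on the 4 days for regions open throughout. Peaks with a MACS score under 60, close to the lowest deposited score of 50, made up 20.2% and 17.2% of gained regions on days 5 and 7, and 19.2% and 29.2% of lost regions on days 1 and 3. Just outside the rule lay 11133 regions open in both later libraries and 1 early library, with a median pileup of 8, and 31662 closed in both early libraries and open in 1 later library, with a median of 6. Their counterparts on the other side were 3637 regions open in both early libraries and 1 later library, and 14686 open in 1 early library alone, with medians of 7 and 5.

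Most switching regions were distal. Some part of the region lay within 2 kb of an annotated start site for 858 gained regions (7.98%, interval 7.47 to 8.51). The same held for 93 lost regions (4.91%, interval 3.98 to 5.98). It held for 42.2% of regions open in all 4 libraries and 16.6% of those open in at least 1. The gained share depended on the calls. It was 13.09% with a minimum score of 100, 16.69% with a minimum share of each region covered by peaks, and 6.932% without day 7. The lost shares there were 4.267%, 6.426% and 7.235%. The background was not recomputed for these settings. Introns held 42.8% of gained and 50.1% of lost regions, and intergenic sequence 46.0% and 42.6%, while over regions open in at least 1 library introns held 40.2% and intergenic sequence 40.4%. The median distance to the nearest start site of a protein-coding gene was 41.9 kb for gained and 44.6 kb for lost regions, compared with 8.30 kb for regions open throughout and 30.2 kb for those open in at least 1 library. Within the gained set the distance followed the state, with medians of 56.9 kb for neither, 44.8 kb for MEF type, 30.2 kb for ESC type and 22.1 kb for shared regions. MEF type regions open throughout lay at a median of 44.3 kb, close to the 48.9 kb of lost MEF type regions.

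**Figure D2:**
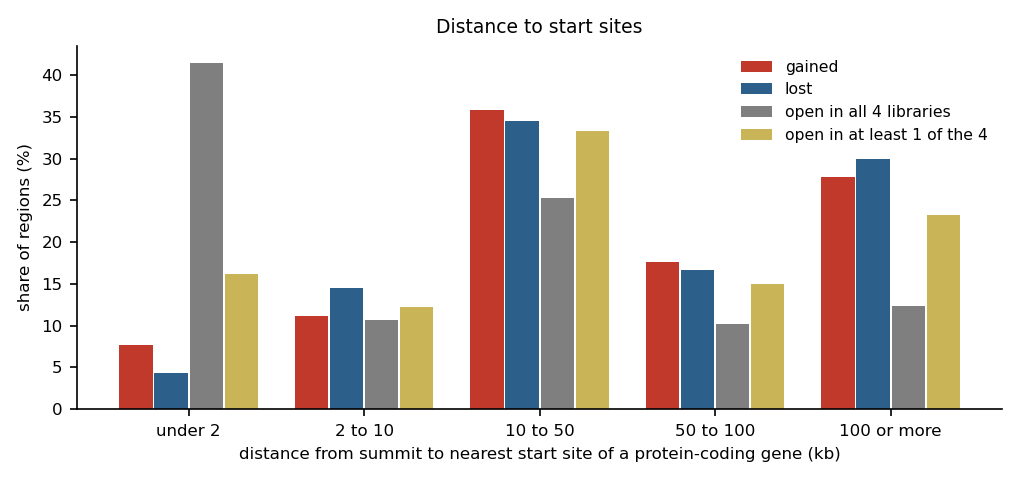
Share of regions (%) by distance (kb) from the summit to the nearest start site of a protein-coding gene, for gained, lost, constantly open regions and all regions open in at least 1 of the 4 libraries. Regions 50 kb or more away made up 45.4% of gained and 46.6% of lost regions, 22.6% of regions open in all 4 and 38.3% of those open in at least 1.

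Sites of 16 factor families were counted on both strands within 25 bp of the top summit. The AP-1 site separated the sets. It was present in 476 lost regions (25.2%, interval 23.2 to 27.2) and in 253 gained regions (2.35%, interval 2.08 to 2.66), against 5.90% of regions open throughout and 7.26% of regions open in at least 1 library. Without day 1 the lost share was 16.15%, and without day 5 the gained share was 3.583%. Outside promoters the shares were 25.5% of lost and 2.42% of gained regions. Within the MEF type, AP-1 sites were found in 30.7% of lost regions (interval 27.9 to 33.6) and in 5.88% of gained regions (interval 4.62 to 7.36). Within the neither state they were found in 20.1% of lost (interval 16.9 to 23.5) and in 2.39% of gained regions (interval 2.01 to 2.82). Regions open in all 4 libraries held them in 20.5% for the MEF type (interval 19.3 to 21.7) and in 7.17% for neither (interval 6.37 to 8.04).

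Gained regions had no site of comparable frequency. Sites of TEAD, the DNA-binding partner of YAP, were found in 3.10% of gained and 4.39% of lost regions, with intervals of 2.78 to 3.44 and 3.51 to 5.41. Over regions open in at least 1 library the TEAD share was 3.31% (interval 3.21 to 3.42), which overlapped the interval of gained regions. Sites of SOX (AACAATG) were found in 0.763% of gained and 0.899% of lost regions, with overlapping intervals, and in 0.751% of regions open in at least 1 library. The octamer was found in 0.865% of gained regions (interval 0.699 to 1.06) and in 0.561% of regions open throughout (interval 0.479 to 0.653). It was found in 1.27% of lost regions (interval 0.815 to 1.88) and in 0.666% of those open in at least 1 library (interval 0.619 to 0.716), and both intervals overlapped that of gained regions. Gained regions exceeded lost regions for CTCF, the insulator protein (1.75% against 0.740%), for the E-box CAGGTG, read by SNAI and ZEB repressors (2.90% against 1.59%), and for TCF (ATCAAAG, 0.791% against 0.264%), each with intervals that did not overlap. Over all regions open in at least 1 library the shares were 1.53%, 2.59% and 0.587%, and their intervals overlapped those of gained regions for all 3 sites. Sites of CEBP (TTGCNNAA) were found in 2.65% of gained regions (interval 2.356 to 2.973) and of IRF (GAAANNGAA) in 1.42% (interval 1.208 to 1.665). Both intervals lay above those of all regions open in at least 1 library (2.13% and 1.06%), and overlapped those of lost regions (1.90% and 1.69%). In gained ESC type regions the E-box was at 4.43% (interval 3.37 to 5.72) and the KLF site (GGGNGTGG) at 2.85% (interval 2.004 to 3.924), while the octamer was at 1.19% (interval 0.666 to 1.95). ESC type regions open in all 4 libraries held these at 4.60%, 3.31% and 2.03%.

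Short words near the summits were counted before a further site was picked, so its intervals describe these regions and test no enrichment. That site was the arm of a palindrome for a POU dimer, ATGNATA. It was found in 5.43% of gained regions of neither type (interval 4.85 to 6.05), in 8.43% of neither regions open throughout (interval 7.57 to 9.36) and in 5.76% of lost neither regions (interval 4.04 to 7.92). In gained ESC type regions it was at 0.9501% (interval 0.4919 to 1.654) and in gained shared regions at 0.555%. Over the whole sets the arm was found in 3.44% of gained regions (interval 3.11 to 3.80) and 4.28% of lost regions (interval 3.42 to 5.30). All regions open in at least 1 library held it in 3.35% (interval 3.24 to 3.45). Among gained and constantly open regions the share was higher in the neither state than in the MEF type (2.15% and 3.58%), and among lost regions the intervals of these states overlapped (5.76% and 3.86%). Median GC content within 25 bp of the summit was 47.1% in gained neither, 52.9% in gained ESC type and 47.1% in lost regions, and its part in these shares was not tested.

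**Figure D3:**
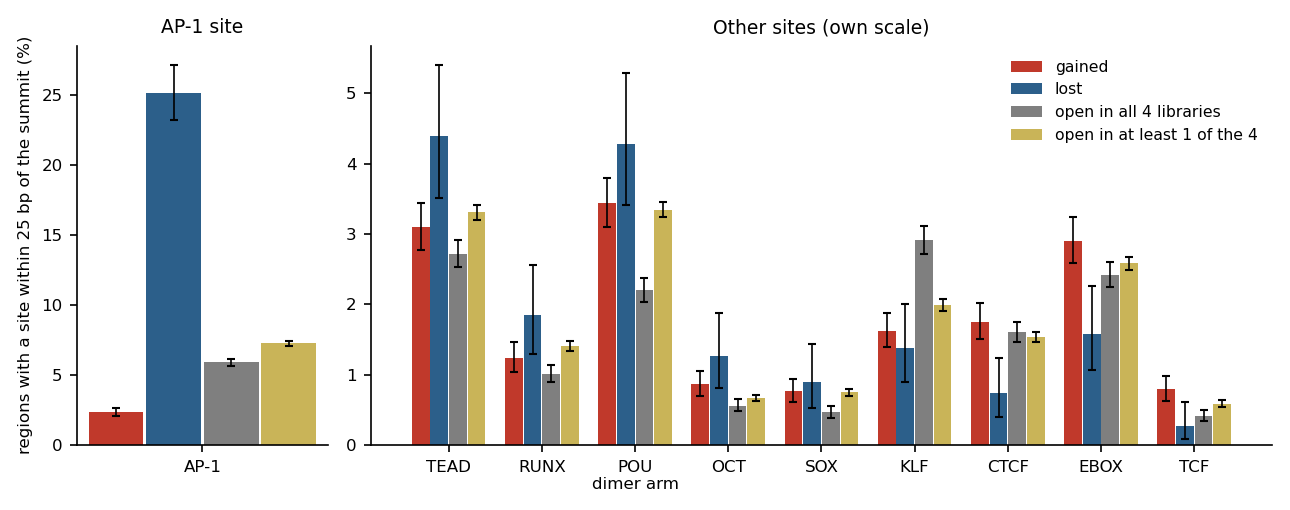
Share of regions (%) with a consensus site within 25 bp of the summit, for AP-1 (left) and 9 further sites (right, own scale), with 95% exact binomial error bars. AP-1 reaches 25.2% in lost regions and 2.35% in gained regions, and no site on the right exceeds 4.39%.

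Genes were examined at promoters, as a region within 2 kb of a start site, and at loci, as the gene body with 10 kb on each side. A gene counted at its promoter when any of its promoter regions switched, whatever the state of the others. Among 21911 protein-coding genes, 828 had a gained region at the promoter (3.78%) and 101 a lost one (0.461%). At loci the numbers were 5093 genes with a gained region (23.2%) and 1247 with a lost region (5.69%). The median locus width was 37.4 kb over all of them. It was 31.1 kb for the AP-1 family, 63.2 kb for the TEAD and YAP pathway, 30.2 kb for both cell cycle and interferon response genes, 32.2 kb for epithelial, 24.6 kb for neural and 32.8 kb for leukocyte genes.

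Of 36 pluripotency genes, 4 had a gained and 0 a lost region at the promoter, and 8 (22.2%) had a gained and 0 a lost region in the locus, at a median locus width of 31.8 kb against 37.4 kb for all genes. The share with a gained locus was thus at the background of 23.2%. L1td1, which encodes an RNA-binding protein of ESCs, had 3 gained regions among 5 open in at least 1 library. Its promoter region (chr4:98727631-98728670, ESC type) had pileups of 36, 47 and 30 in ESCs, 0 on days 1 and 3, 5 on day 5 and 6 on day 7. It had also been open on day 0, with a pileup of 7, and was closed again from day 8 to day 12. Upstream of Sox2, the partner of OCT4 on composite sites, an intergenic ESC type region (chr3:34647838-34648140) had 7 and 6 tags on days 5 and 7. It stayed open with 6, 8 and 11 tags on days 8, 10 and 12, and was open in NanogN70 with 7, 16 and 26 tags on days 7, 10 and 12. A second region at Sox2 (chr3:34650868-34651112), within the gene itself, had 5 and 6 tags on days 5 and 7 and no peak in any other library, ESCs included. Other promoter peaks were present at Sox2 on days 1 and 3.

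The gained regions at further pluripotency genes differed in their ESC state. The Tdgf1 promoter region, at the gene of the NODAL co-receptor CRIPTO, had 9 and 10 tags on days 5 and 7 and was closed in MEFs and ESCs, while NanogN70 had 16 to 28 tags there from day 0 to day 7. Tdgf1 had another promoter peak on day 3. The promoter region of Lin28b, which blocks maturation of let-7, had 9 and 8 tags and was open in MEFs (18 tags) and in 1 ESC library (11 tags). Trim71, a partner of the same let-7 axis, had 2 gained regions in its locus, of which 1 was shared and 1 of neither type. The shared region lay in an intron of Ccr4, which had the nearest start site, and the other in an intron of Trim71. Fgf4 is the gene of the growth factor that drives exit from naive pluripotency. An ESC type region in its locus (chr7:144846063-144846518) had 7 and 5 tags against 21, 25 and 13 in ESCs. The nearest start site was that of Fgf3, 7.756 kb away.

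Fibroblast and mesenchymal genes had both gained and lost regions. Of 257 regions open in at least 1 library in their loci, 28 were gained and 5 lost, beside 7945 and 1423 of 96408 over all genes. Of 36 genes, 7 had a gained and 1 a lost region at the promoter, and 17 (47.2%) had a gained and 5 (13.9%) a lost region in the locus. The background was 23.2% and 5.69%, and the median locus width was 53.3 kb against 37.4 kb. Several of the promoter regions were open in MEFs, closed on days 1 and 3, and open again. At Fap, the gene of fibroblast activation protein, the pileup was 17 in MEFs, 0 on days 0, 1 and 3, 8 on day 5, 5 on day 7, 5 on day 8 and 0 thereafter. At Col6a3, a chain of collagen VI, it was 19 in MEFs, 0 on days 0, 1 and 3, and 8, 12, 5 and 7 on days 5, 7, 8 and 10. At Lum, the keratan sulfate proteoglycan lumican, it was 9 in MEFs, 0 on the first 3 days, and 6 on both day 5 and day 7. In NanogN70 the Fap and Lum regions had no peak on any day, and the Col6a3 region had one on day 0 only.

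The gained regions at transcription factors of the mesenchyme differed in state. At Zeb1, a repressor of epithelial genes, 3 promoter regions were gained, with 9 to 10 tags on day 5 and 7 to 13 on day 7, and 2 of them were shared by MEFs and ESCs. Prrx1, a homeobox gene of limb mesenchyme, had a shared promoter region (13 and 10 tags on days 5 and 7) and a neighbour open in no other library (9 and 9 tags). Pdgfra, the PDGF receptor alpha of fibroblasts, had 10 and 11 tags at a promoter region found in 1 ESC library but not in MEFs, and a second, shared region in the locus. Other promoter peaks were present at Pdgfra in MEFs and on days 1 and 3, and at Prrx1 on day 1. Promoter gain at Col6a1 was seen on days 5 and 7 alone (7 and 8 tags). Without a promoter region, Fbn1 (fibrillin) and Col5a1 had 3 gained regions each in the locus, and Pdgfrb, Zeb2 and Cdh2 (N-cadherin) had 2 each. All 3 Fbn1 regions were of neither type.

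The lost regions at fibroblast genes were few and mostly MEF type. The promoter region of Loxl1, a lysyl oxidase that cross-links elastin (chr9:58314773-58315372), had 16 tags in MEFs, 7, 11 and 8 on days 0, 1 and 3, and none on days 5 and 7, and reappeared on day 10 with 10 tags. Col1a2, Col3a1 and Col5a2, all of fibrillar collagens, had 1 lost MEF type region each. The Col3a1 region had 32 tags in MEFs, 9 and 5 on days 1 and 3, none on days 5 and 7, and 10, 5 and 5 on days 8, 10 and 12. The fifth gene, Cdh11, a cadherin of mesenchyme, had a lost and a gained region of neither type in its introns.

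In the AP-1 family, 1 of 16 genes had a lost and 0 a gained promoter region. The gene was Fosl1, which encodes FRA1, a FOS family protein that pairs with JUN proteins. Its MEF type region (chr19:5448428-5448980) had 16 tags in MEFs, 9, 7 and 7 on days 0, 1 and 3, none on days 5 and 7, and 7 on day 8. In the locus, 3 family genes had gained (18.75%) and 2 had lost regions (12.5%), beside 23.2% and 5.69% of all genes, with 4 gained and 2 lost at Bach2. Of 18 TEAD and YAP pathway genes matched, 0 had a switching promoter, and 3 had gained (16.67%) and 2 lost regions (11.11%) in the locus. Among 20 genes of cell cycle and senescence, 4 had a gained region in the locus (20%, against 23.2% of all genes) and 4 a lost region (20%, against 5.69%). Of these, Cdkn1a, which encodes the inhibitor p21, had a lost promoter region (chr17:29090780-29091083). Its pileup was 12 and 15 on days 1 and 3 and 0 on all other days of both paths, 0 in MEFs, and 11, 20 and 13 in ESCs. Of 24 genes of the TGF-beta pathway, 12 had a gained and 3 a lost region in the locus, or 50% and 12.5% of them (23.2% and 5.69% of all genes), at a median locus width of 83.2 kb. By region, 16 were gained and 4 lost of 215 open in at least 1 library, beside 7945 and 1423 of 96408 over all genes. Ski and Eng had gained promoter regions. The Ski region, at the gene of a SMAD corepressor, had 34 and 28 tags on days 5 and 7, beside a median of 7 over all gained regions, and 12 tags on day 0. It was closed in MEFs and ESCs and was open in NanogN70 on day 0 (28 tags) and day 1 (12 tags) only.

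Epithelial genes had 4 gained and 0 lost promoters among 25, and 7 gained loci (28.0%), where 3.78% of all genes had a gained promoter and 23.2% a gained locus. Krt18 (keratin 18) had an ESC type region with 7 and 5 tags. Esrp1, an epithelial splicing regulator, had 7 and 8 tags at a shared region with 28, 28 and 24 tags in ESCs and 6 in MEFs. Ovol2, a repressor of mesenchymal genes, had 6 and 7 tags at a shared region, and St14, the protease matriptase, had 7 and 6 at a MEF type region. After day 7 in the Nanog path, the Krt18 and Ovol2 regions had no peak and the Esrp1 region had peaks on days 10 and 12.

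For lineage genes the same backgrounds apply, 3.78% of promoters and 23.2% of loci gained over all genes. Of 20 genes of endoderm, mesoderm and trophoblast, 4 had a gained promoter region and 0 a lost one, and 8 (40.0%) had a gained locus at a median width of 28.0 kb. The 4 promoters were those of Foxa2 (9 and 11 tags), Sox7 (7 and 9), Eomes (6 and 9) and Mixl1 (4 and 7), and all but the MEF type Sox7 region were shared by MEFs and ESCs. All of them were open on day 8, and the Mixl1 region alone was still open on day 12. Of 20 neural regulators, 7 (35.0%) had a gained locus and 3 a gained promoter, namely Olig2 (10 and 6 tags, shared), Pax6 (6 and 12 tags, open in MEFs and 1 ESC library) and Zic1 (7 and 9 tags, neither). Of 18 interferon response genes, Gbp2 alone had a gained promoter (9 and 9 tags, ESC type), and 4 (22.2%) had a gained locus. Of 22 leukocyte genes, Ptprc (CD45) alone had one, with 6 and 5 tags at a region of neither type, and 5 (22.7%) had a gained locus. The T cell genes Cd3e, Cd3d and Cd3g had no promoter peak on any of the 4 days.

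By count, the loci with most gained regions were those of very long genes. These were chosen after their values were seen. The gene model Gm20388, with a locus of 4455 kb, headed both counts with 33 gained and 10 lost regions among 409 open in at least 1 library. Rbfox1, a neuronal splicing factor gene with a locus of 1546 kb, had 20 gained and 2 lost regions among 73, Fgfr2 (2981 kb in the annotation) had 16 and 2 among 207, and Auts2 had 15 and 2 among 88. For lost regions, 5 genes followed with 4 each, such as Itpr2 (of 35) and Ncam1, the neural cell adhesion molecule (of 29).

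The regions named by rank show the time course of single sites. The 6 strongest gained regions by the lower of their day 5 and day 7 scores were closed in MEFs and on days 0, 1 and 3, and 5 of them were closed in ESCs. The first (chr3:144394511-144395937, 175 kb from Hs2st1) had 25 and 23 tags on days 5 and 7 and 9 on day 8, and NanogN70 had 9, 12, 25, 21 and 11 tags there from day 1 to day 8. The region 401 kb from Eef2kmt (chr16:5656331-5656983) had 23 tags on both day 5 and day 7 and 5 on day 10, with 7 and 6 in NanogN70 on days 3 and 5. The Rbfox1 intron region (chr16:7158528-7159321) had 17 tags on both days and no peak afterwards. The Aff3 intron region (chr1:38319615-38320175, nearest start site that of Rev1) had 19 and 18 tags and kept 11, 9 and 4 on days 8, 10 and 12. A region 826 kb from Reep3 had 18 and 16 tags. The exception was the region 89.7 kb from Pabpc6 (chr17:9579432-9580608), an ESC type region with 8, 16 and 9 tags in ESCs. It had 15 and 20 tags on days 5 and 7, stayed open with 14, 10 and 18 tags to day 12, and reached 38 tags in NanogN70 on day 12.

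Gained regions strongest in ESCs remained weak. The 4 with the highest mean ESC score were in introns of Aak1, Sdk1 and Tbl1xr1 and 84.3 kb from H2afz. The Tbl1xr1 region had 81, 92 and 71 tags in ESCs, 5 and 6 on days 5 and 7, and none from day 8 on. The Aak1 region had 63, 73 and 55 tags in ESCs and 8 and 5 on days 5 and 7, also none from day 8, while NanogN70 had 18 and 28 tags on days 5 and 7 and 11 on day 12. The Sdk1 region had 7 and 8 tags and none later in the Nanog path, against 10 to 16 in NanogN70 from day 5 to day 12. Near H2afz the Nanog path had 6, 8, 4 and 4 tags on days 5, 7, 8 and 10 and none on day 12, and NanogN70 had 23 on day 12. At all 4 regions the Nanog day 12 library had no peak and the NanogN70 day 12 library had one. At the regions open in all 20 libraries the median pileup was 24 in the Nanog and 41 in the NanogN70 library of day 12. The part of detection in this difference was not tested.

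The 9 named lost regions, all MEF type, were open on days 0, 1 and 3, and their pileup in MEFs ranged from 7 (R3hdm2 intron) to 114 (93.4 kb from Nr2f2, an orphan nuclear receptor gene of mesenchyme). The Nr2f2 region (chr7:70266716-70267482) had 29, 11 and 12 tags on days 0, 1 and 3 and none on days 5 and 7, but 10, 13 and 11 tags on days 8, 10 and 12. The region 93.0 kb from Hsp90b1 (chr10:86612180-86612877) had 64 tags in MEFs, 25, 15 and 12 on days 0, 1 and 3, 10 and 7 on days 8 and 10, and none on day 12. At the regions open in all 20 libraries the median pileup was 39 in MEFs and 16, 16 and 23 on days 0, 1 and 3. A region in an untranslated exon of Fam168a, nearest to Relt, had 15 and 11 tags on days 1 and 3 and 6 and 4 on days 8 and 10. Near Hdac2 the values were 10 and 12, and near Nrip1 14 and 8, with 8 tags on day 8 at both. The Unc13c intron region, with 105 tags in MEFs, had 10 and 5 tags on days 1 and 3 and no peak afterwards. On day 8, 7 of the 9 were open again, followed by 4 on day 10 and 2 on day 12. In NanogN70, 9 were open on day 0, 8 on day 1 and 0 from day 3 on (from day 5 on without the day 3 library).

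**Figure D4:**
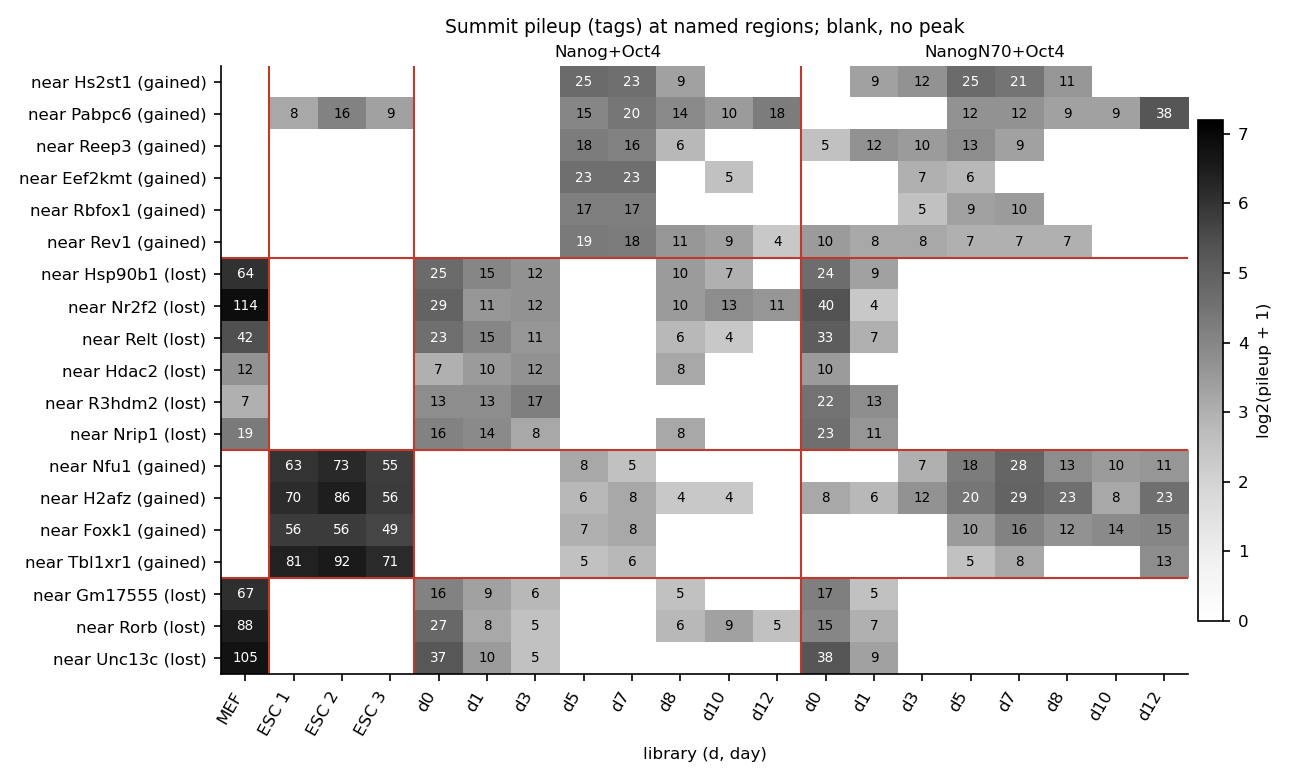
Summit pileup (tags, grey scale log2(pileup + 1)) of the 19 named regions (rows, by nearest gene and set) in the 20 libraries (columns), with blank cells where no peak was called. In the Nanog path 7 of the 9 lost regions have a peak again on day 8, whereas the NanogN70 path has none there from day 3 on, or from day 5 on without its day 3 library. Over all lost regions the shares open were 35.8% on Nanog day 8 and 21.3% on NanogN70 day 3.

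The other libraries of the Nanog path were then read over the whole sets. Of gained regions, 10.9% were open on day 0 (interval 10.28 to 11.47), 47.5% on day 8, 22.6% on day 10 and 20.3% on day 12 (interval 19.6 to 21.1). Those shares were 38.1%, 50.03%, 34.0% and 29.5% over all regions open in at least 1 of the 4 libraries. With a minimum score of 100, 28.82% of gained regions were open on day 0 and 77.58% on day 8, and without day 7 in the rule 26.35% were open on day 8. In all, 1047 gained regions (9.74%) were open on each of days 8, 10 and 12, and 4853 (45.1%) on none of them, compared with 69.3% and 5.33% of the regions open throughout. Persistence differed with the state. Of gained regions of neither type 8.05% were open on day 12, of ESC type 30.9%, of MEF type 21.9% and of shared regions 46.9%. No peak in any of the 16 other libraries was found for 1588 gained regions (14.8%) and 121 lost regions (6.38%).

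Lost regions, at 0 on days 5 and 7 by rule, were below the background on the later days. On day 0, 67.0% were open (interval 64.9 to 69.2), and 1023 (54.0%) were open both in MEFs and on day 0. On day 8, 35.8% were open (interval 33.6 to 38.0), on day 10 15.2% and on day 12 5.91% (interval 4.89 to 7.07), beside 50.03%, 34.0% and 29.5% of all regions open in at least 1 of the 4 libraries. The day 8 share depended on the calls: it was 68.27% with a minimum score of 100, 58.54% with a margin, 55.6% without day 7 and 15.58% without day 3. Of the MEF type regions among them, 42.3% were open on day 8 and 5.74% on day 12. Detection at the 31355 regions shared by MEFs and ESCs was 83.2% on day 8, 70.9% on day 10 and 71.9% on day 12, beside 83.7% on day 7. Day, medium and library cannot be told apart.

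In the NanogN70 path the gained regions were open at 25.5%, 22.0%, 34.5%, 51.2%, 49.9%, 27.8%, 18.96% and 24.6% on the 8 days from day 0 to day 12. The background of regions open in at least 1 of the 4 Nanog libraries was 49.98%, 43.1%, 41.9%, 46.4%, 44.7%, 34.4%, 26.5% and 29.6% on the same days, and gained regions were above it on days 5 and 7. This depended on the rule. The gained shares on NanogN70 days 5 and 7 were 31.21% and 28.02% without Nanog day 7 in the rule, 37.45% and 39.33% without Nanog day 5, and 39.95% and 43.2% with at least 0.5 of a region covered, all under the background values just given, which were not recomputed for these settings. Lost regions were open at 74.7%, 56.4%, 21.3%, 13.8%, 10.8%, 9.65%, 3.75% and 5.06%. They were thus above the background on days 0 and 1 and below it from day 3, a day at which they were open by rule in the Nanog path. Without the NanogN70 day 3 library, they were below it from day 5. The lost shares on NanogN70 days 5 and 7 were 26.59% and 26.46% without Nanog day 7 in the rule, and 25.07% and 19.6% with a minimum score of 100. The gained ESC type regions were open at 73.5% on NanogN70 day 7 (interval 71.0 to 75.9) and at 46.7% on day 12 (interval 43.9 to 49.5), beside 30.9% on Nanog day 12 (interval 28.4 to 33.6). Detection on day 12 at the 31355 regions shared by MEFs and ESCs was 77.6% in the NanogN70 and 71.9% in the Nanog library. Its part in this difference was not tested.

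The same switch, closed on days 1 and 3 and open on days 5 and 7, was met in NanogN70 by 12.8% of gained regions, and by 4.82% of all regions open in at least 1 of the 4 Nanog libraries. The reverse switch was met by 7.12% of lost regions, against 1.97% of all. Without the NanogN70 day 3 library, which stands apart, these shares were 25.01% and 10.9% for gain, and 43.6% and 10.3% for loss. Among lost MEF type regions the reverse switch was met by 6.69%, and by 50.3% without day 3. Among gained ESC type regions the switch was met by 20.3%, and by 41.1% without day 3.

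**Figure D5:**
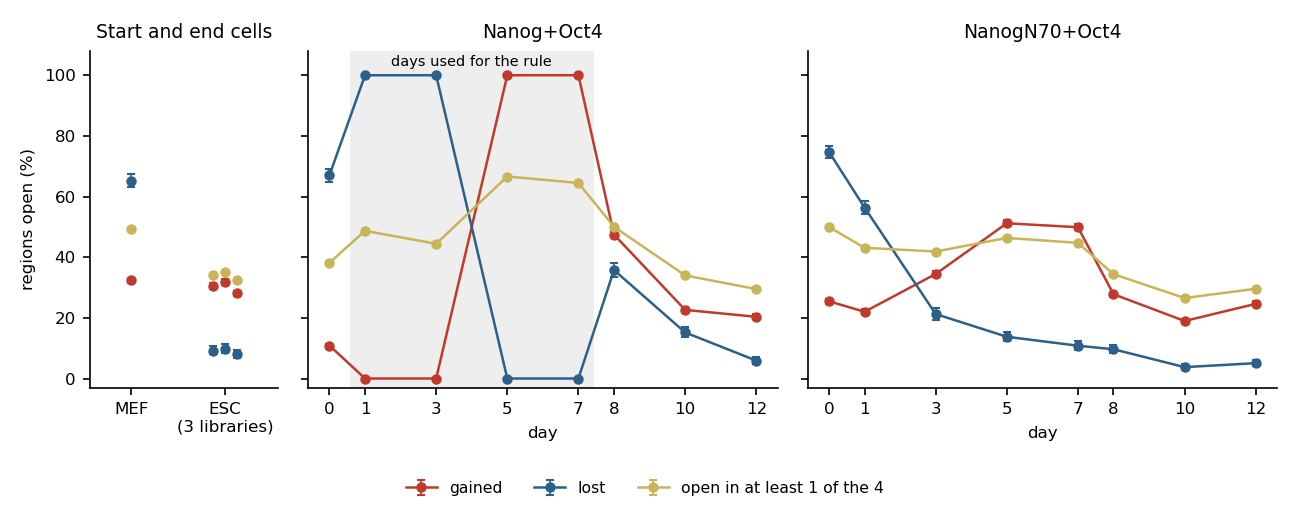
Share of gained and lost regions open (%) in MEFs, 3 ESC libraries and each day of both paths, beside all regions open in at least 1 of the 4 libraries (shaded days set the values of 0 and 100). Bars are 95% exact binomial intervals. Lost regions were at 35.8% on Nanog day 8 and at 9.65% on NanogN70 day 8.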

How the data were processed

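ATAC-seq was performed by the authors on MEFs, ESCs and 2 time courses. They trimmed reads with Trim Galore 0.6.4, aligned them to mm10 with Bowtie2 2.4.5, filtered out repeats, poor alignments and mitochondrial DNA with SAMtools 1.16.1, and called peaks in each library with MACS 1.4.2 without model, keeping duplicates. The peak score deposited by the authors is the MACS p-value on a negative log scale, with a lowest value of 50, and the deposited signal of a summit is its pileup in tags, which is not scaled to depth.

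Overlapping peaks (1 bp or more) of the 20 libraries were joined to regions, and a peak in a library made its region open there. All last peaks lay inside the GRCm38 chromosome lengths. Places and start sites came from GENCODE M21 (18 of 20 TEAD and YAP pathway genes and all genes of the other 10 lists matched), and sequence from the RefSeq copy of GRCm38.p6. Of the switching regions, 7 lay outside chromosomes 1 to 19, X and Y. Sites were matched as exact letters on both strands. Python 3 with numpy, pandas, scipy and pysam was used, and the calling of regions was tested on simulated data.

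Each day is 1 library and days are not replicates, so no test was made. Shares carry 95% exact (Clopper-Pearson) intervals for counting error only, and ESC values the spread of 3 libraries, whose cultures are not described as separate. The regions named were the 6 gained and 6 lost with the highest lower score of the pair of libraries that define them, and 4 gained ESC type (in all 3 ESC libraries) and 4 lost MEF type regions with the highest mean ESC or MEF score, 1 per nearest gene, without chromosome 18 and Y. One region met both lost criteria. Listed genes with a switching promoter were named, and for pluripotency and fibroblast genes those with 2 or more switching regions in the locus. Fgf4, Col1a2, Col3a1, Col5a2, Cdh11 and Bach2 were added after their values were seen. The sets and lists were chosen with earlier results of these data known.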

Additional observations from a re-analysis of the deposited data

How the results depend on the processing

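The alternatives kept most contrasts between gained and lost regions. In 10 of 10 settings that bear on them, AP-1 sites and the MEF type were more frequent in lost regions and the ESC type in gained regions, and in 9 of 9 settings gained regions were more numerous and more often open on NanogN70 day 7. Promoters were more frequent in gained regions in 9 of 10 settings, except without day 7, and the neither state in 9 of 10, except without day 1. The order for SOX sites turned in 2 of 10.

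The numbers themselves depended on the threshold. With an equal number of peaks per library, 4509 regions were gained and 3312 lost. Of the gained, 50.65% were neither, 60.52% were open on NanogN70 day 7 and 2.063% held an AP-1 site, and of the lost, 53.35% were MEF type and 16.85% open on NanogN70 day 7. With a minimum score of 100, 6686 were gained and 750 lost. Of the gained, 8.645% were ESC type, 37.45% neither, 13.09% at promoters, 74.89% open on NanogN70 day 7 and 2.692% with an AP-1 site. Of the lost, 65.07% were MEF type, 19.6% open on NanogN70 day 7 and 28.7% with an AP-1 site. With a margin, where open needs a score of 100 and closed means no peak, 1902 were gained and 164 lost. Of the gained, 12.51% were ESC type, 66.61% open on NanogN70 day 7, 2.05% with an AP-1 and 0.5783% with a SOX site. Of the lost, 71.34% were MEF type, 12.8% open on NanogN70 day 7 and 32.93% with an AP-1 site.

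With regions merged over the 4 libraries alone, 51.18% of gained regions were neither, and 10.8% of gained and 6.748% of lost regions lay at promoters. With at least 0.5 of a region covered by peaks, 1245 regions were lost. Of the gained, 9.252% were ESC type, 55.14% neither, 16.69% at promoters and 43.2% open on NanogN70 day 7, and of the lost 44.42% were MEF type and 6.426% at promoters. With ESC open in any library, 14.68% of gained regions were ESC type. Within 1 kb of a start site lay 6.464% of gained and 2.743% of lost regions. Within 50 bp of the summit, AP-1 sites were found in 4.67% of gained and 45.32% of lost regions and SOX sites in 1.74% of gained regions.

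Leaving out days 1, 3, 5 and 7 in turn gave 14161 to 27959 gained regions (highest without day 7) and 3476 to 13462 lost regions (highest without day 3, 5016 without day 1), since 1 condition fewer is asked. Among gained regions, the ESC type ranged from 8.405% to 12.86%, neither from 47.12% to 66.56%, promoters from 6.932% to 9.937%, AP-1 sites from 2.379% to 3.583%, SOX sites from 0.7632% to 0.8299% and regions open on NanogN70 day 7 from 28.02% to 57.71%. Among lost regions, the MEF type ranged from 35.59% to 50.54%, promoters from 4.502% to 7.235%, AP-1 sites from 16.15% to 22.71% and regions open on NanogN70 day 7 from 6.455% to 26.46%. Causes of these shifts were not tested. No paired analysis was possible because each day and path is 1 library and the result comes from no test. Depth is unknown, and its part in the calls was not tested.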

Other observations

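Gained and lost regions were spread over the chromosomes. Gained regions made up 8.65% (X) to 10.5% (chromosome 5) of the regions open in at least 1 of the 4 libraries on each autosome and X, and lost regions 1.03% (X) to 2.33% (chromosome 19). Median widths were 352 bp for gained and 367.5 bp for lost regions, against 374 bp for regions open in at least 1 library and 817 bp for regions open in all 4.

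Among gained regions open in MEFs, many had no peak on Nanog day 0. Of the gained MEF type regions, 27.2% were open on day 0 as well as in MEFs, and of the gained shared regions 25.8%, whereas 84.6% of lost MEF type regions were open on day 0. NanogN70 day 0 was open at 39.9% of gained MEF type regions (95% exact interval 37.1 to 42.7) and Nanog day 0 at 27.2% (interval 24.7 to 29.8). Detection at the regions shared by MEFs and ESCs was 66.6% for the Nanog and 77.7% for the NanogN70 library of day 0. Its part in these day 0 shares and in their difference was not tested.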
